A study of Mus musculus with 2 samples.

Results

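The genes that build, load and switch on major histocompatibility complex (MHC) class II molecules were followed through the cells of mouse tumors. They are 9 of the 16416 genes in the deposited table, named by symbol: the chain genes H2-Aa, H2-Ab1 and H2-Eb1, the invariant chain gene Cd74, the peptide exchange genes H2-DMa, H2-DMb1 and H2-DMb2, the exchange inhibitor gene H2-Oa, and the coactivator gene Ciita. Single cells were profiled by 3′ end droplet sequencing (10x Genomics) from tumors grown in S303/7A mice, in which serines of heat shock factor 1 (HSF1), the activator of the chaperone genes, are replaced by alanine, and from tumors of wild-type (WT) hosts. Each genotype gave 1 library, the design text speaks of 4 mice being pooled, and live CD45+ and CD45- cells were sorted and then mixed 5 to 1. The tumors were grafts, so the genotype is that of the host. The sources used here give neither the genotype of the tumor cells nor the tumor line, the strain or the age of the mice, and 3′ end counts do not read the HSF1 mutation itself. With 1 library each there are no replicates: no difference below was tested, and the intervals express counting error alone.

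The genes were read in 10 deposited cell classes, which held 4664 of 4802 S303/7A cells and 6491 of 6654 WT cells: macrophages (MF), monocytes (Mo), dendritic cells (DC), plasmacytoid dendritic cells (pDC), B cells, granulocytes (Gr), CD8 T cells, natural killer (NK) cells, regulatory T cells (Treg) and tumor cells. The class labels were checked against marker lists. All markers were highest in their own class for MF (6 of 6), DC (7 of 7), pDC (4 of 4), B cells (4 of 4), CD8 T cells (4 of 4), NK cells (3 of 3), Treg (3 of 3) and Gr (5 of 5). For Mo this held for 3 of 4, with Ccr2 highest in NK cells, and for tumor cells for 4 of 5, with Pecam1 highest in pDC. The median cell held more UMIs in S303/7A in each of the 10 classes: the median MF had 14044 UMIs in S303/7A and 5388 in WT, the median Mo 9020.0 and 4292, and the median DC 13046 and 7322. A UMI, or unique molecular identifier, is a tag by which each captured molecule is counted once. The libraries shared 48 cell barcodes.

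MHC class II molecules are pairs of an alpha and a beta chain that show fragments of engulfed proteins to CD4 T cells, and they are chiefly made by dendritic cells, B cells and macrophages. H2-Aa and H2-Ab1 encode the alpha and beta chain of I-A, and H2-Eb1 the beta chain of I-E. The invariant chain, Cd74, fills the peptide groove until lysosomal proteases trim it. The H2-DM pair, made of H2-DMa and an H2-DMb chain, then swaps the last remnant for a peptide, and H2-O, of which H2-Oa is the alpha chain, restrains H2-DM. Ciita encodes the coactivator that binds to a complex of RFX, CREB and NF-Y factors on the X and Y boxes of class II promoters. Interferon gamma induces Ciita, in part through Irf1.

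On the mouse genome (GRCm38, GENCODE release M21), 7 of the members lie together on chromosome 17, between bases 34092340 and 34316674. Their order is H2-Oa, H2-DMa, H2-DMb2, H2-DMb1, H2-Ab1, H2-Aa and H2-Eb1. H2-Aa (34282744 to 34287823) is on the minus strand and the other 6 are on the plus strand. Ciita is on chromosome 16 (10480059 to 10528418, plus strand), and Cd74 is outside this cluster too. H2-DMb2 (34143307 to 34151555) and H2-DMb1 (34153072 to 34160230) are neighbouring copies. Of the 31-base words in the last 500 bases of H2-DMb1, 25.3% also occur in H2-DMb2, and of those of H2-DMb2, 0.851% occur in H2-DMb1, so the split of 3′ end reads between them is uncertain.

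Stretches of 4 member promoters are shown because they carry letters like those of the X and Y boxes, and because chains and Ciita are set side by side below. The capitals mark a GNAAC core, as at the end of an X box, and the TGATTGG of a Y box, both read on the gene's own strand. The sequences are from RefSeq (GRCm38.p6), 5′ to 3′, at chr17:34092294-34092345 (+) for H2-Oa, chr17:34153088-34153139 (+) for H2-DMb1, chr17:34287862-34287913 (-) for H2-Aa and chr17:34305767-34305817 (+) for H2-Eb1.
H2-Oa: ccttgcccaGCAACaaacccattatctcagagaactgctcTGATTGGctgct
H2-DMb1: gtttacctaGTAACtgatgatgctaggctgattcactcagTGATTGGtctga
H2-Aa: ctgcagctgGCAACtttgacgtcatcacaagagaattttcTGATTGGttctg
H2-Eb1: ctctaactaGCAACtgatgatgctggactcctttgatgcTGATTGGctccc
The cores were 26 bases apart in H2-Oa, H2-DMb1 and H2-Aa and 25 bases apart in H2-Eb1, and the Y box core lay 38, 56, 43 and 54 bases before the start site of the RefSeq table, which need not be the GENCODE gene start given above. Searched on both strands of 32851 RefSeq promoters (250 bases before to 50 after the start), GNAAC followed within 50 bases by TGATTGG was found in 1.35% of all promoters and in 6 of 9 class II promoter entries, not in either entry of H2-DMa or in that of H2-DMb2. This pattern was written after the sequences had been seen. The 9 entries were those of 6 members and of H2-Ob and H2-Eb2, class II genes that are not members but held the pattern. H2-Ab1, Cd74 and Ciita had no entry and were not searched. The X core first searched, CCTNGNNAC, was found in 2 of the 9 entries and in 15.8% of all promoters. ATTGG, which lies within TGATTGG, was found in 8 of the 9 and in 37.4%. The first of these followed by the second within 40 bases was found in 2 of the 9 and in 0.676%. A match is a run of letters and not a measured binding site.

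The chain genes were abundant in every antigen-presenting class and low in lymphocytes and tumor cells, in both libraries. A level here is the UMIs of a gene per 10000 UMIs of a class or cluster. A 3′ end UMI stands for 1 molecule whatever its length, though genes may be captured unequally. The 3 chain genes summed to 247 in S303/7A DC and 241 in WT DC, to 219.8 in S303/7A Mo and 119.6 in WT Mo, and to 197 in S303/7A B cells and 178 in WT B cells. They summed to 167 in S303/7A MF and 179 in WT MF, and to 79.4 in S303/7A pDC and 79.2 in WT pDC. The DC, MF and pDC sums were thus close between the libraries, while the Mo sums were far apart. In CD8 T cells the sum was 7.45 in S303/7A and 4.88 in WT, in NK cells 8.75 and 4.99, in Treg 7.20 and 7.32, and in tumor cells 2.50 and 1.78.

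Among the 22 deposited clusters, the same DC cluster, C16, and the same macrophage cluster, C02, stood at the top in both libraries. In the S303/7A library the chain sums ran from C16 (323) and C02 (314) through the DC cluster C20 (266), the monocytes C07 (219.8), the B cells C21 (197) and the macrophage clusters C13 (146), C03 (135) and C05 (111). The DC cluster C17 (91.0), the granulocyte cluster C18 (88.6) and the macrophage cluster C09 (87.4) followed with overlapping intervals, and pDC (79.4) came next. In the WT library the order was C16 (322), C02 (282), C20 (224), B cells (178) and C18 (175) with overlapping intervals, C03 (158) and C17 (126). C05 (121), C09 (120.4) and C07 (119.6) then overlapped, ahead of C13 (114) and pDC (79.2). The monocytes thus stood above all macrophage clusters but C02 in S303/7A, and level with C05 and C09 in WT. These genes were among those on which cells can have been clustered, so the order of clusters is a description.

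**Figure D1:**
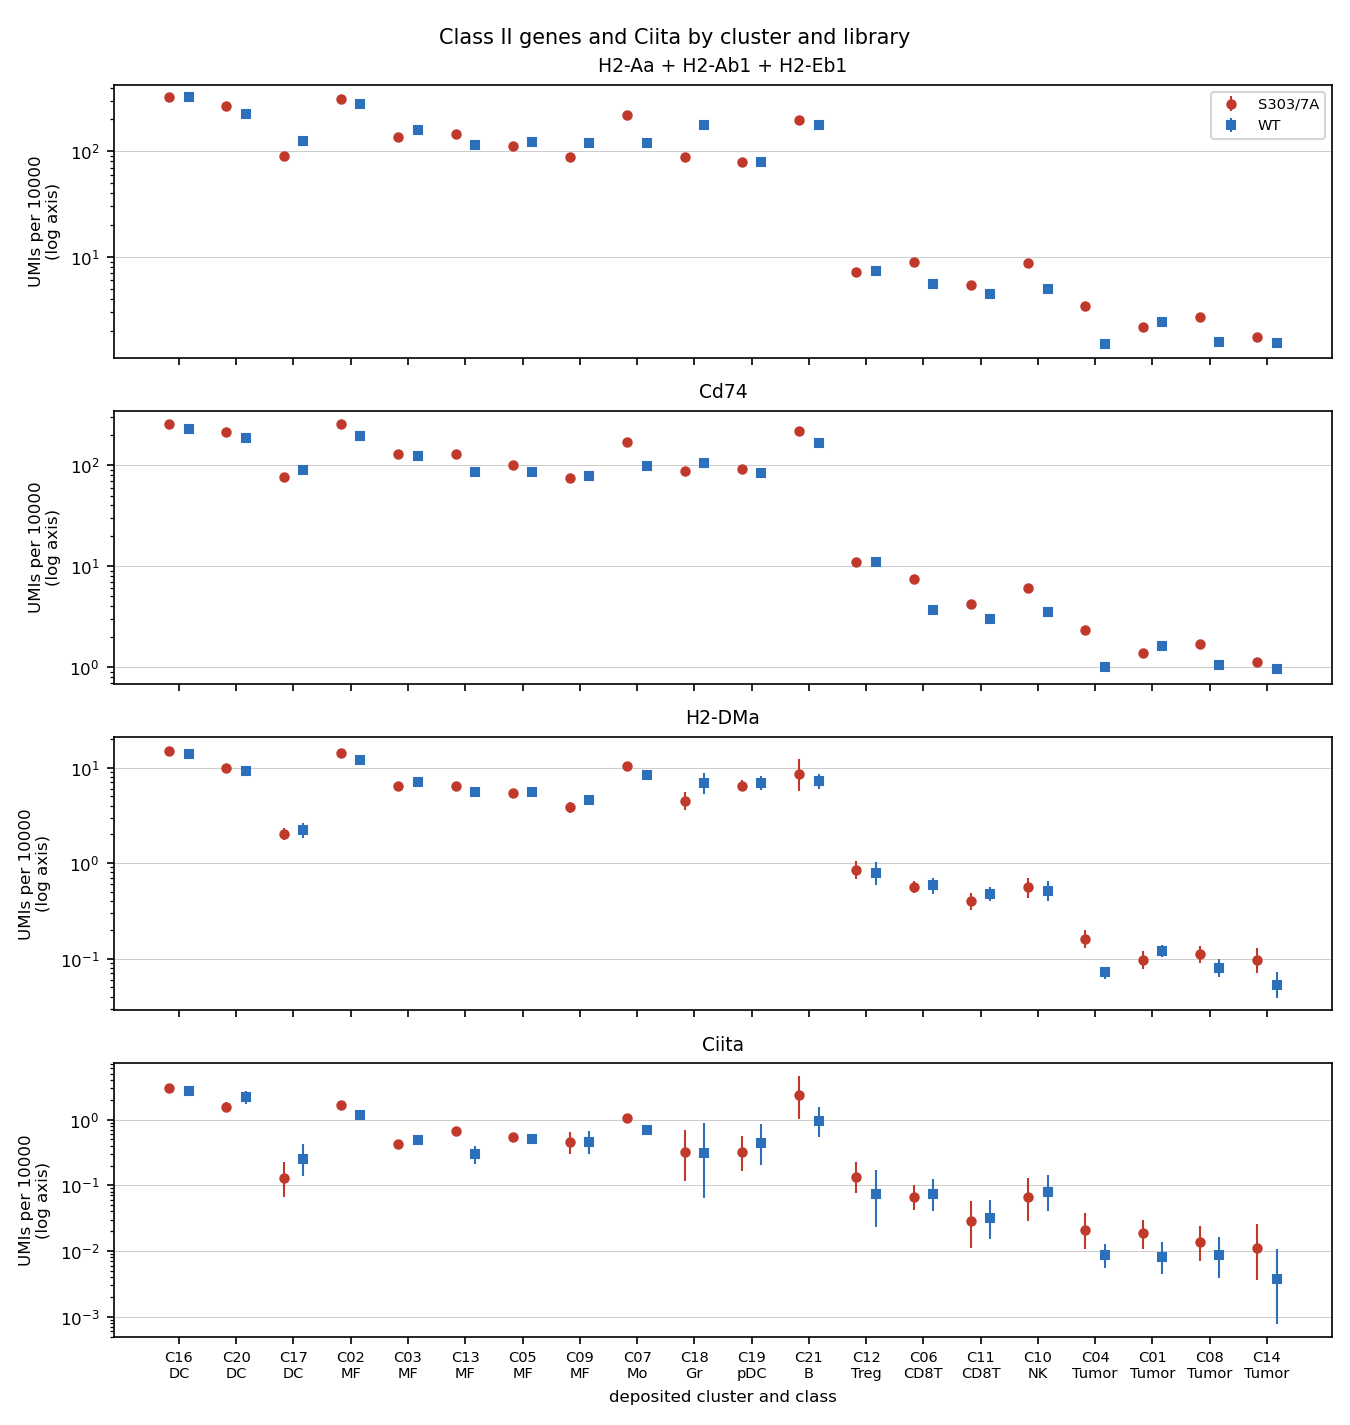
Levels of the summed chain genes, Cd74, H2-DMa and Ciita (UMIs per 10000, log axis) in 20 deposited clusters, with S303/7A as red circles on the left and WT as blue squares on the right and exact Poisson 95% intervals. C16 and C02 are at or near the top of each panel, and the Ciita level of the DC cluster C17 (0.130 in S303/7A and 0.255 in WT) is far below that of C16 (3.06 and 2.76).

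Ciita was measured at a far lower level than the chain genes and Cd74. Its highest levels in the S303/7A library were 3.06 per 10000 UMIs in C16, 2.36 in B cells, 1.67 in C02 and 1.54 in C20, each overlapping the next, followed by 1.06 in the monocytes. In the WT library they were 2.76 in C16 and 2.18 in C20, which overlapped, and then 1.18 in C02, 0.956 in B cells and 0.693 in the monocytes, each overlapping the next. Over all cells there were 5.15 Ciita UMIs per 1000 chain UMIs in S303/7A and 4.70 in WT. After thinning every cell to 1000 UMIs, which left out 63 S303/7A and 199 WT cells, a Ciita UMI was found in 16.1% of S303/7A DC and 13.1% of WT DC, against 64.6% and 51.8% before thinning. In CD8 T cells, a class taken as the background for free RNA, the thinned share was 0.324% in S303/7A and 0.289% in WT.

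Among macrophages, monocytes and dendritic cells, class II genes differed most between the libraries in monocytes. Cd74 stood at 169 per 10000 UMIs in S303/7A Mo and 97.9 in WT Mo, a ratio of 1.73 (95% interval 1.70 to 1.76). H2-Aa stood at 71.4 and 40.2, H2-Ab1 at 87.2 and 46.7, and H2-Eb1 at 61.2 and 32.8, with ratios of 1.78 (1.73 to 1.82), 1.87 (1.83 to 1.91) and 1.87 (1.82 to 1.92). All 4 genes were therefore higher in the S303/7A monocytes by similar factors. H2-DMa and H2-DMb1 were higher by less: H2-DMa stood at 10.3 in S303/7A and 8.37 in WT (ratio 1.23) and H2-DMb1 at 10.7 and 7.23 (ratio 1.49). H2-DMb2 was low in both, with 192 UMIs in S303/7A and 59 in WT, and had a larger ratio than the chains (2.83, 2.11 to 3.86). H2-Oa was at 0.117 in both libraries. Ciita stood at 1.06 in S303/7A Mo and 0.693 in WT Mo, from 281 and 160 UMIs (ratio 1.53, 1.25 to 1.87).

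Of the 9 members, 6 were past 1.5-fold higher in S303/7A Mo (H2-Aa, H2-Ab1, H2-Eb1, Cd74, H2-DMb2 and Ciita) and none lower, where 15.1% of all genes measured at 0.1 per 10000 or more were past that fold higher and 8.68% lower. The members' median log2 ratio was 0.79, against 0.07 over all genes. Several other quantities moved with this difference, and their part in it was not tested. The 6 macrophage markers, all above 0, summed to 68.6 per 10000 in S303/7A Mo and 31.8 in WT Mo, and median depth was 2.10 times higher in S303/7A Mo. In cells thinned to 1000 UMIs the chain ratio was 1.68 (1.61 to 1.74), while the Ciita ratio was 1.03 (0.603 to 1.73) from 24 S303/7A and 45 WT UMIs. Thinned Mo without any UMI of C1qa, C1qb, C1qc or Ms4a7, a choice made after the marker sums had been seen, were 115 S303/7A and 263 WT cells. Their chain levels were 91.7 and 61.9, a ratio of 1.48 (1.37 to 1.60), and their Ciita ratio was 1.14 (0.453 to 2.68).

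The chain difference was not seen with monocytes and macrophages pooled, where macrophages held most of the UMIs. They held 29378585 UMIs in S303/7A and 11861373 in WT, against 2653284 and 2309967 in monocytes. The pooled ratio thus lies near that of macrophages and cannot show whether the difference depends on where the classes were divided. With Mo and MF taken as 1 class, a choice made after the ratios had been seen, the chains stood at 172 per 10000 UMIs in S303/7A (2349 cells) and 169 in WT (2502 cells), a ratio of 1.01 (1.01 to 1.02). Cd74 then stood at 148 in S303/7A and 123 in WT (ratio 1.20), and Ciita at 0.805 and 0.687 (ratio 1.17, 1.09 to 1.26). There were 267 monocytes and 2082 macrophages among 4802 S303/7A cells, and 519 and 1983 among 6654 WT cells. The libraries also differed in tumor cells (935 in S303/7A and 2332 in WT), so these cell numbers do not compare abundance. Whether cells between monocytes and macrophages were assigned alike in the libraries was not tested.

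Within the monocytes, the S303/7A cells were shifted towards high chain counts. At 1000 UMIs per cell, the median Mo had 13 chain UMIs in S303/7A and 4 in WT, and the upper quartile was 36 and 19. Cells with 20 or more chain UMIs made up 44.9% of S303/7A Mo and 24.3% of WT Mo, and cells with none made up 17.2% and 29.3%. Both libraries thus held monocytes without and with abundant class II RNA, in different proportions.

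**Figure D2:**
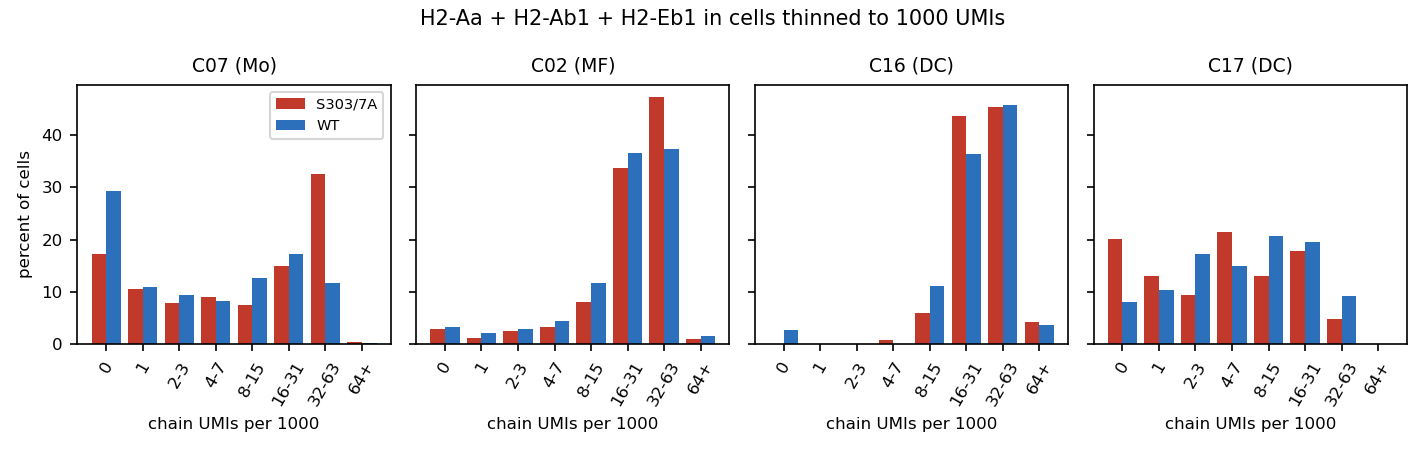
Share of cells (percent) by the number of chain UMIs in a cell thinned to 1000 UMIs, in the monocyte cluster C07, the macrophage cluster C02 and the DC clusters C16 and C17, S303/7A beside WT. In C07 the bin of 32 to 63 UMIs held 32.6% of S303/7A cells and 11.8% of WT cells.

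In macrophages as a class the chain genes were nearly level between the libraries and Cd74 was slightly higher in S303/7A. H2-Aa stood at 57.0 per 10000 in S303/7A and 58.9 in WT, H2-Ab1 at 61.3 and 62.9, and H2-Eb1 at 49.0 and 57.2, which gave ratios of 0.968, 0.975 and 0.857 (0.849 to 0.864). Cd74 stood at 146 in S303/7A and 127 in WT (ratio 1.14). H2-Eb1 was thus the lowest of the chain genes relative to WT. H2-DMa (7.74 in S303/7A and 7.89 in WT) and H2-DMb1 (7.03 and 7.16) had ratios of 0.981 and 0.982. Ciita stood at 0.782 in S303/7A, from 2297 UMIs, and 0.685 in WT, from 813 UMIs (ratio 1.14, 1.05 to 1.24). At 1000 UMIs per cell a Ciita UMI was found in 7.40% of S303/7A MF and 6.33% of WT MF.

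The only member past 1.5-fold in MF was H2-DMb2, with 0.681 in S303/7A and 0.365 in WT (ratio 1.87, 1.68 to 2.07), where 3.92% of all genes were past that fold higher and 3.70% lower. H2-DMb1 and H2-DMb2 summed did not pass it. The members' median log2 ratio in MF was -0.03, against 0.04 over all genes. Beside these values, the macrophage markers summed to 151 in S303/7A MF and 115 in WT MF and median depth was 2.61 times higher in S303/7A.

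The 5 macrophage clusters did not move together. The chain ratio was 1.28 in C13 and 1.11 (1.10 to 1.12) in C02, and 0.923 in C05, 0.854 in C03 and 0.725 in C09. C02, the macrophages with the most class II RNA, stood at 314 in S303/7A and 282 in WT, and C09 at 87.4 and 120.4. Ciita followed in C13 (ratio 2.24, 1.64 to 3.15, from 339 S303/7A and 44 WT UMIs) and C02 (1.42, 1.27 to 1.59), and its ratio was 0.883 in C03, 0.987 in C09 and 1.06 (0.895 to 1.27) in C05. C13 thus had the largest Ciita ratio of the macrophage clusters, but its WT side rests on few UMIs. Past 1.5-fold higher were H2-DMb2 and Ciita in C13, where 7.55% of all genes were, and H2-DMb2 and H2-Oa in C02, where 8.11% were. In neither cluster was a member past that fold lower, where 5.65% and 7.74% of all genes were. H2-DMb2 and H2-Oa were past it higher in C05 and H2-DMb2 in C09, where 5.72% and 16.4% of all genes were higher and 4.27% and 18.3% lower. No member was past it in C03, where 7.51% of all genes were higher and 5.26% lower. The 4 CD8 T cell markers summed to 10.1 in S303/7A C05 and 11.4 in WT C05. They summed to 1.86 and 2.22 in C09, 0.185 and 0.173 in C02, and 3.63 and 3.59 in all MF. Their part in the members' values was not tested.

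Macrophages without any chain UMI were more frequent in the S303/7A library. At 1000 UMIs per cell they made up 16.2% of S303/7A MF and 7.84% of WT MF, and in cluster C03 they made up 23.1% and 8.56%. In C02, where almost every cell carried the chains, the median was 31 chain UMIs in S303/7A and 26 in WT, and 77.4% and 67.7% of cells had 20 or more. C02 made up 526 of 2082 S303/7A MF and 702 of 1983 WT MF, so the cluster with the most chain RNA was a smaller part of S303/7A macrophages. With the macrophage clusters weighted equally the chain ratio was 0.998 and the Ciita ratio 1.29.

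**Figure D3:**
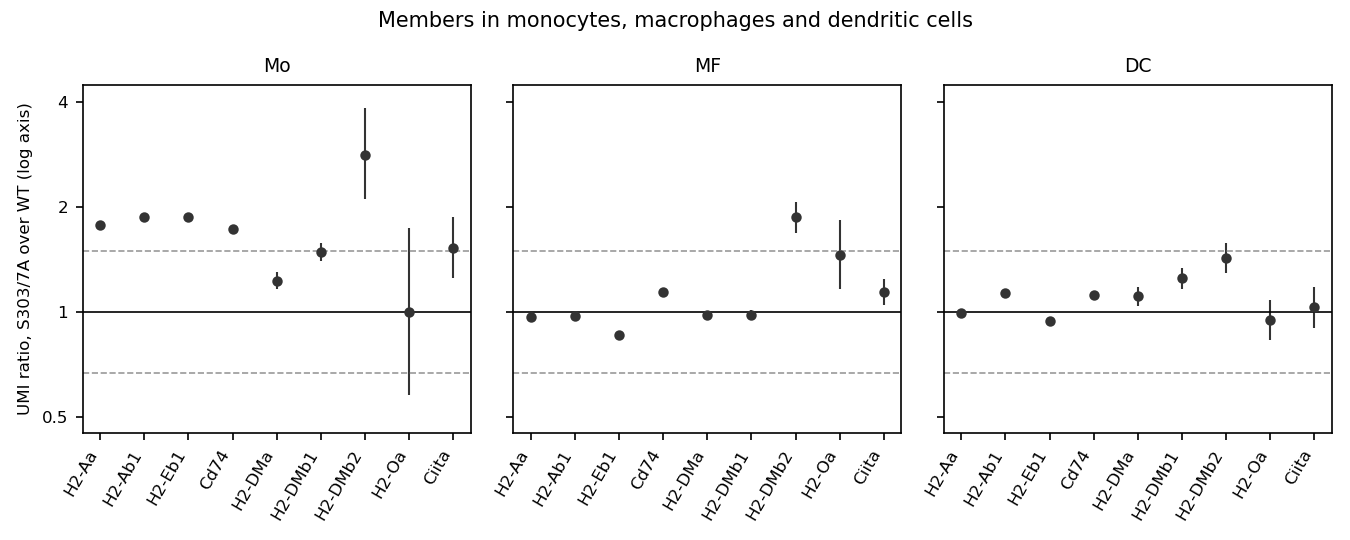
Ratio of UMIs relative to all UMIs, S303/7A over WT (log axis), for the 9 members in monocytes, macrophages and dendritic cells with exact 95% intervals, where the dashed lines mark 1.5-fold. In monocytes Cd74 and the 3 chain genes lie between 1.73 and 1.87, while in macrophages the chain genes lie between 0.857 and 0.975.

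Dendritic cells had the highest chain sums of the classes and little difference between the libraries. H2-Aa stood at 85.6 per 10000 in S303/7A and 86.1 in WT, H2-Ab1 at 92.6 and 82.2, H2-Eb1 at 69.0 and 73.1, and Cd74 at 199.7 and 179. Their ratios were 0.994, 1.13, 0.943 and 1.12, all close to 1. Ciita stood at 1.92 in S303/7A and 1.86 in WT (ratio 1.03, 0.899 to 1.18). No member was past 1.5-fold in either direction, where 7.71% of all genes were past it higher and 6.97% lower. The members' median log2 ratio was 0.15, against 0.00 over all genes.

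The DC clusters differed from each other far more than the libraries did. C16 had the highest Cd209a, a marker of type 2 conventional dendritic cells, at 3.80 in S303/7A and 2.99 in WT. C20 had the highest Xcr1, a marker of type 1 cells, at 3.39 and 4.76. C17 had the highest Ccr7, the receptor that guides dendritic cells to lymph nodes, at 19.2 and 20.5, and the highest Fscn1, an actin-bundling protein of mature dendritic cells, at 29.7 and 21.3. C16 and C17 held similar cell numbers (117 and 85 in S303/7A, 107 and 90 in WT). In C17 Ciita was barely detected, with 12 UMIs in S303/7A and 14 in WT, or 0.130 and 0.255 per 10000, against 3.06 and 2.76 in C16. H2-DMa stood at 2.01 in S303/7A C17 and 2.22 in WT C17, against 14.9 and 13.8 in C16.

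In C17 the chain genes stood in other proportions to each other than in the rest of the dendritic cells. H2-Ab1 made 0.402 UMIs per H2-Aa UMI in S303/7A C17 (0.379 to 0.427) and 0.445 in WT C17 (0.417 to 0.475), against 1.17 and 1.08 in C16, 1.22 and 1.10 in C20 and 1.09 and 1.06 over each whole library. H2-Eb1 made 1.85 UMIs per H2-Ab1 UMI in S303/7A C17 and 1.89 in WT C17, against 0.721 and 0.803 in C16. H2-Ab1 was thus the member chain with the least RNA in this cluster, in both libraries. H2-Eb2, a second beta chain gene of the I-E type, stood at 0.411 in S303/7A C17 and 0.821 in WT C17 from 38 and 45 UMIs, and at 0.0586 and 0.0699 in C16. Per 1000 chain UMIs, C17 held 1.43 Ciita UMIs in S303/7A and 2.02 in WT, and C16 held 9.48 and 8.57. Since the clusters were made from expression, these differences between them are descriptions.

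Between the libraries, C17 had less chain RNA in S303/7A, at 91.0 against 126 in WT (ratio 0.720), and C16 was level (ratio 1.00, 0.987 to 1.02). In C20 the chains stood at 266 in S303/7A and 224 in WT (ratio 1.19), and Ciita at 1.54 and 2.18 (ratio 0.709, 0.530 to 0.952, from 124 and 79 UMIs). Chains and coactivator therefore lay on opposite sides of 1 in C20. The 6 macrophage markers, all above 0, summed to 32.8 in S303/7A C20 and 6.03 in WT C20, to 20.3 and 7.02 in C16, to 18.1 and 18.0 in C17, and to 22.6 and 10.2 in all DC, and their part in these values was not tested. In C17, H2-DMb2 was past 1.5-fold higher and Ciita past it lower (ratio 0.509, 0.215 to 1.19), where 13.4% of all genes were past that fold higher and 17.4% lower. In C16 no member was past it, where 14.0% were higher and 11.5% lower, and in C20 none was, where 17.9% were higher and 19.0% lower.

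**Figure D4:**
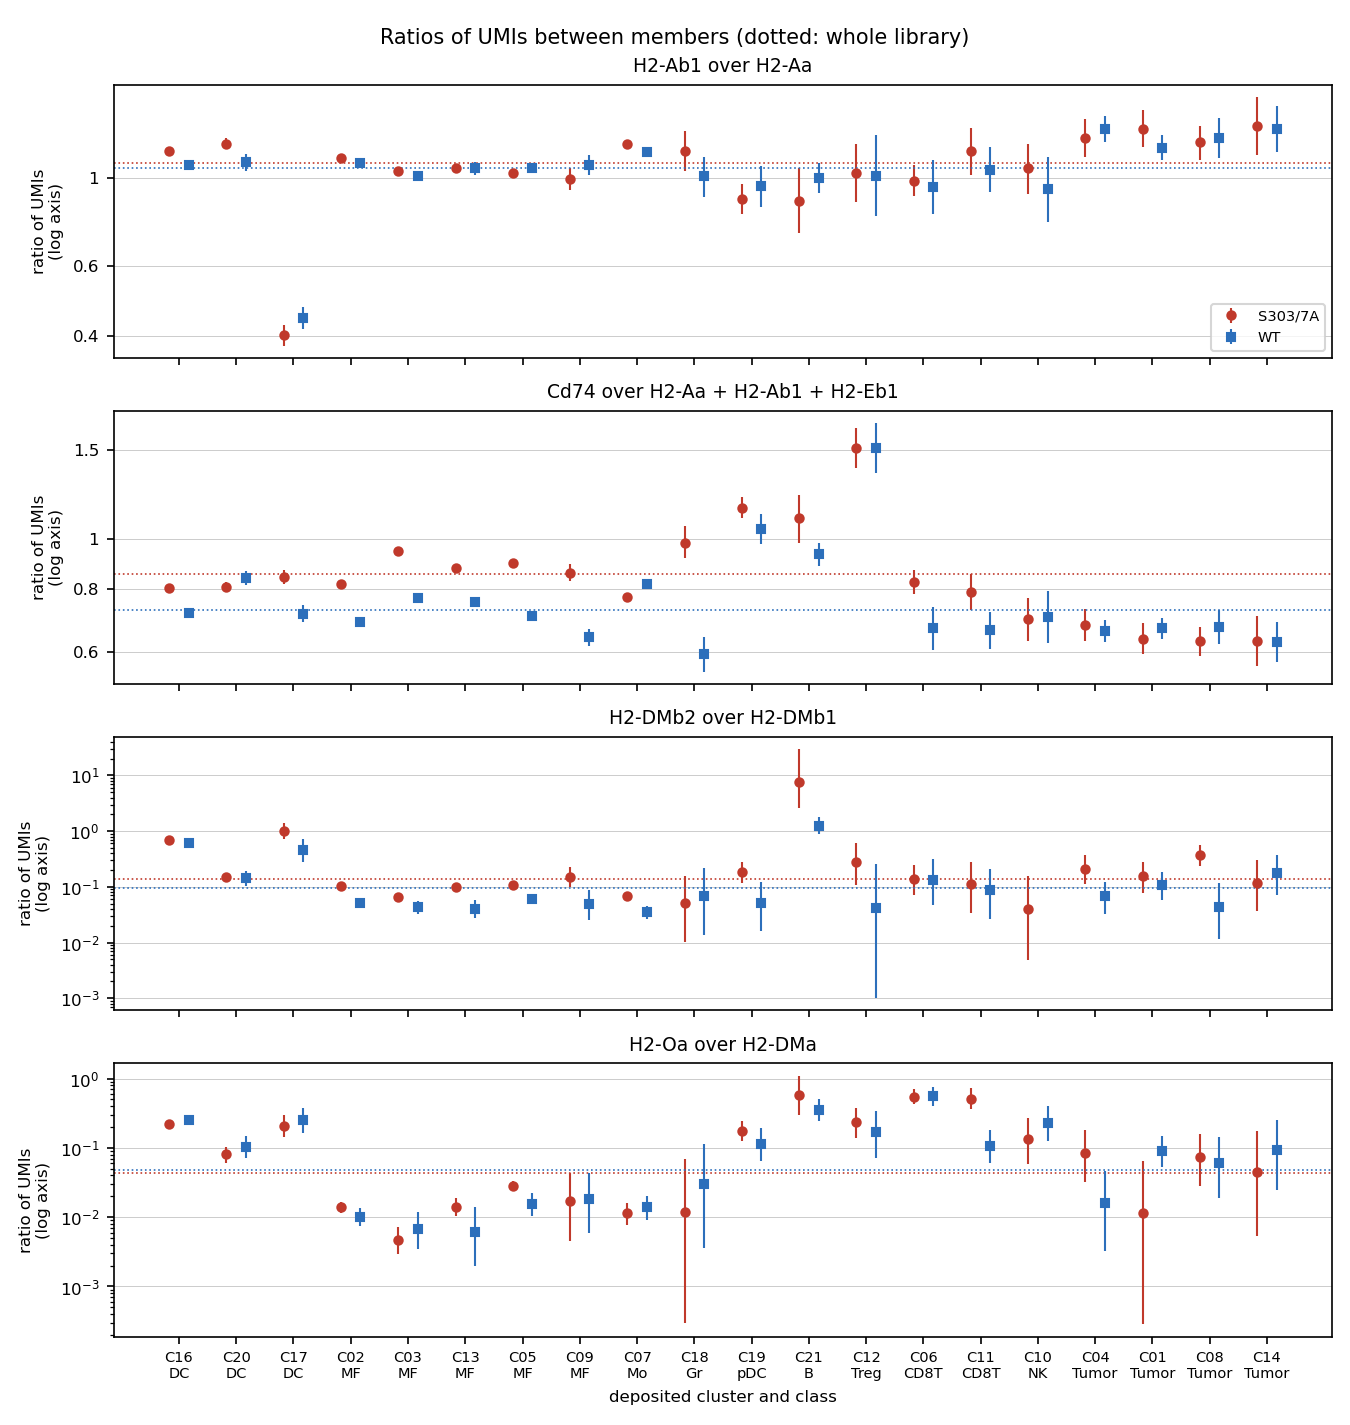
Ratios of UMIs between pairs of members by deposited cluster (log axes): H2-Ab1 over H2-Aa, Cd74 over the summed chains, H2-DMb2 over H2-DMb1 and H2-Oa over H2-DMa, with S303/7A as red circles on the left and WT as blue squares on the right, exact 95% intervals and dotted lines at the whole-library ratios; points at 0 are not drawn. In the first panel C17 (0.402 in S303/7A and 0.445 in WT) is far below the library ratios of 1.09 and 1.06.

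The invariant chain was in larger supply relative to the chains over the whole S303/7A library, in MF and in DC, but not in every class. There were 0.854 Cd74 UMIs per chain UMI over the whole S303/7A library and 0.728 over the WT library. In MF the values were 0.871 and 0.712 and in DC 0.808 and 0.740, whereas in Mo they were 0.770 and 0.818, the other way round. The order between classes was alike in both libraries at its ends: Treg held the most Cd74 per chain UMI, 1.51 in each library (1.38 to 1.65 in S303/7A and 1.35 to 1.69 in WT), and tumor cells were among the lowest, with 0.646 and 0.663.

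The exchange genes and their inhibitor followed cell lineage. H2-DMb2 made 0.517 UMIs per H2-DMb1 UMI in S303/7A DC and 0.452 in WT DC, but 0.0969 and 0.0510 in MF and 0.0673 and 0.0353 in Mo. In macrophages and monocytes nearly all H2-DMb UMIs were thus counted to the H2-DMb1 copy, within the uncertainty of splitting reads between these copies. The highest H2-DMb2 levels were 8.86 in S303/7A B cells and 4.78 in WT B cells, and 6.84 and 4.93 in C16. H2-Oa was highest in the same cells, at 5.02 in S303/7A B cells and 2.51 in WT B cells and at 3.30 and 3.46 in C16, and was at 0.120 and 0.0826 in MF. Per H2-DMa UMI there were 0.586 H2-Oa UMIs in S303/7A B cells and 0.350 in WT B cells, 0.189 and 0.221 in DC, and 0.0156 and 0.0105 in MF. Over the whole libraries, H2-DMa matched the summed H2-DMb genes closely, with 0.983 UMIs per H2-DMb UMI in S303/7A and 1.07 in WT. In MF, 22744 H2-DMa UMIs stood against 22661 H2-DMb UMIs in S303/7A, and 9364 against 8929 in WT. The match was not general: in CD8 T cells it was 284 against 156 in S303/7A and 258 against 114 in WT. In Treg it was 94 against 37 and 54 against 25, while S303/7A DC held fewer H2-DMa UMIs, 3529 against 4063.

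B cells and pDC were few. The B class held 14 S303/7A cells and 47 WT cells, too few for a ratio. In it, Cd74 stood at 216 in S303/7A and 166 in WT, and Ciita at 2.36 and 0.956. The 4 B cell markers summed to 70.6 in S303/7A B cells and 27.7 in WT B cells, and the macrophage markers to 4.13 (4 of 6 above 0) and 43.5 (6 of 6), so these libraries' B classes differed in content and the part of this in the members' levels was not tested. The 32 S303/7A and 33 WT pDC had level chains (ratio 1.00, 0.944 to 1.07). Cd74 stood at 91.7 in S303/7A pDC and 83.0 in WT pDC, and Ciita at 0.319 and 0.443. H2-DMb2 had a ratio of 2.92 (1.11 to 9.70) from 27 S303/7A and 5 WT UMIs. The macrophage markers summed to 55.8 in S303/7A pDC and 27.4 in WT pDC.

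The granulocyte class had less chain RNA in S303/7A, at 65.6 against 152 in WT (ratio 0.431, 0.403 to 0.460). The class pools C18, with a chain ratio of 0.505 (0.472 to 0.541), and C22, with chains at 16.3 in S303/7A and 3.31 in WT. C22 made up 25 of 66 S303/7A and 9 of 48 WT granulocytes, and the part of this in the class ratio was not tested. Thinned to 1000 UMIs, which left out 14 S303/7A and 19 WT granulocytes, 26 of 52 S303/7A and 13 of 29 WT granulocytes had a chain UMI. In cluster C18, with 41 S303/7A and 39 WT cells, the 5% of cells with the most chain UMIs, not thinned, held 82.5% of them in S303/7A and 38.7% in WT. The macrophage markers in C18 summed to 147 in S303/7A and 98.4 in WT.

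Class II RNA in T and NK cells was low, and macrophage markers were detected in the same classes. In CD8 T cells H2-Aa stood at 2.49 in S303/7A and 1.56 in WT, H2-Ab1 at 2.59 and 1.58, and Cd74 at 6.06 and 3.25, with ratios of 1.60, 1.64 and 1.86. In NK cells H2-Ab1 stood at 3.16 in S303/7A and 1.59 in WT, and Cd74 at 6.09 and 3.52, with ratios of 1.99 and 1.73. The macrophage markers, 6 of 6 above 0, summed to 7.12 in S303/7A CD8 T cells and 3.35 in WT CD8 T cells, and to 6.61 and 3.57 in NK cells. Both sets of RNA were therefore higher in the S303/7A lymphocytes. Per macrophage marker UMI there were 1.05 chain UMIs in S303/7A CD8 T cells and 1.46 in WT CD8 T cells, 1.32 and 1.40 in NK cells, and 1.11 and 1.56 in the macrophages themselves. Cd74 per marker UMI was 0.851 and 0.971 in CD8 T cells, 0.922 and 0.986 in NK cells, and 0.964 and 1.11 in macrophages. The chains and Cd74 in CD8 T and NK cells thus stood in proportions to the markers close to those in macrophages, and the part of macrophage RNA in them was not tested. Thinned CD8 T cells with no UMI of C1qa, C1qb, C1qc or Ms4a7, 377 in S303/7A and 527 in WT, held chains at 5.36 and 3.51 (ratio 1.53, 1.24 to 1.87) and had a Cd74 ratio of 1.93. In 113 S303/7A and 263 WT NK cells chosen alike the chain ratio was 1.20 (0.846 to 1.68). Thinned to 1000 UMIs without that choice, the chain ratio was 1.46 in CD8 T cells and 1.45 in NK cells, against 1.53 and 1.75 at all UMIs.

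Cd74 in Treg, and other members in several lymphocyte classes, stood in other proportions to the macrophage markers. Cd74 per macrophage marker UMI was 1.84 in S303/7A Treg and 2.25 in WT Treg, and stood at 10.9 and 11.1 per 10000. After thinning, 58.9% of S303/7A Treg and 49.5% of WT Treg had a Cd74 UMI, against 37.9% and 22.8% of CD8 T cells, with median depths of 3702 and 2022 UMIs in Treg and 8325 and 6294 in CD8 T cells. H2-Oa per marker UMI was 0.0371 in S303/7A CD8 T cells and 0.0461 in WT CD8 T cells, against 0.000796 and 0.000721 in macrophages, and it was 0.0113 and 0.0327 in NK cells and 0.0337 and 0.0266 in Treg. The H2-Oa proportion was thus far above that of macrophages in all 3 lymphocyte classes. H2-DMa per marker UMI was 0.0693 in S303/7A CD8 T cells and 0.154 in WT CD8 T cells and 0.0841 and 0.143 in NK cells, against 0.0512 and 0.0689 in macrophages. Ciita per marker UMI was 0.00708 and 0.0144 in CD8 T cells (29 and 24 UMIs) and 0.0100 and 0.0224 in NK cells (8 and 11 UMIs), against 0.00517 and 0.00598 in macrophages. Both were above the macrophage values in each library. The H2-Oa level in CD8 T cells was 0.264 in S303/7A and 0.154 in WT (ratio 1.71), above that of macrophages in both libraries. The CD8 T cell clusters differed: the ratio was 0.956 (0.689 to 1.34) in C06 and 3.98 (2.23 to 7.48) in C11. It came from 101 S303/7A and 61 WT UMIs in C06, and from 51 and 16 in C11. C06 held 441 of 617 S303/7A and 387 of 693 WT CD8 T cells.

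Only members at 0.1 per 10000 or more in either library were counted here. In CD8 T cells, 4 of 7 such members were past 1.5-fold higher (H2-Aa, H2-Ab1, Cd74 and H2-Oa) and none lower. Of all genes, 4.66% were past it higher and 4.42% lower. In NK cells 4 of 7 were higher and H2-Oa was lower, where 8.20% and 10.6% of all genes were. The NK H2-Oa ratio of 0.640 (0.249 to 1.54) came from 9 S303/7A and 16 WT UMIs. In Treg H2-Oa and Ciita were higher and none of 8 was lower, where 9.71% and 16.7% were. The Treg H2-Oa ratio of 1.52 (0.673 to 3.75) came from 22 S303/7A and 9 WT UMIs. The Treg Ciita ratio of 1.87 (0.645 to 6.56) came from 15 S303/7A and 5 WT UMIs. H2-DMb2 in Treg, not counted for its low level, had a ratio of 4.98 (0.667 to 221) from 8 S303/7A and 1 WT UMIs. The counts moved with the setting: 2 members were past 1.5-fold in thinned CD8 T cells, 2 in NK cells as a mean over cells, and 4 in thinned Treg and 0 in Treg without the shallowest cells. The share of all genes past that fold was not counted under these settings. Treg chains were level (ratio 0.984, 0.879 to 1.10).

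Tumor cells had the lowest chain levels of the classes. At all UMIs, 98.4% of S303/7A tumor cells and 89.8% of WT tumor cells held a chain UMI, at median depths of 28127 and 25531 UMIs per cell. Thinned to 1000 UMIs, 19.3% and 10.4% did. The 5% of cells with the most chain UMIs, not thinned, held 33.7% of those UMIs in S303/7A and 49.4% in WT. The chains stood at 2.50 in S303/7A and 1.78 in WT (ratio 1.41, 1.37 to 1.45) and Cd74 at 1.61 and 1.18 (ratio 1.37). Ciita had 45 UMIs in 935 S303/7A cells and 49 in 2332 WT cells (ratio 2.09, 1.36 to 3.20). The macrophage markers summed to 1.55 in S303/7A tumor cells and 0.946 in WT tumor cells, and chain UMIs per marker UMI were 1.62 and 1.88. H2-DMb2, H2-Oa and Ciita were below 0.1 per 10000 in both libraries and were left out of the count of members past 1.5-fold. H2-DMb2 had a ratio of 3.77 (2.48 to 5.80) from 63 S303/7A and 38 WT UMIs, and H2-Oa one of 1.25. H2-DMb2 and Ciita were thus past 1.5-fold higher at these low levels. None of the 6 members counted was past it, where 1.92% of all genes were past it higher and 4.09% lower. This count depended on which cells were kept, and the share of all genes past 1.5-fold was not counted for those choices of cells. Without high doublet scores 4 members were past it and the chain ratio was 1.84. Without cells that held a UMI of another lineage's defining markers, which left 206 S303/7A and 1231 WT tumor cells, 5 members were past it, the chain ratio was 2.12 and the Cd74 ratio 2.45. In thinned cells without a macrophage marker UMI the chain ratio was 2.07 (1.72 to 2.50). The tumor clusters were not alike: the chain ratio was 2.28 in C04, 1.74 in C08, 1.14 in C14 and 0.885 in C01. These ratios rest in part on few cells. The 5% of cells with the most chain UMIs held 49.0% of them in S303/7A C04 and 39.9% in WT C04. They held 39.9% and 42.6% in C08, 12.0% and 45.8% in C14, and 19.4% and 61.4% in C01. In S303/7A C04 the highest cell held 537 of 1781 chain UMIs.

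The genes that act with class II were taken from a list of 27, of which 26 were measured. In MF none of 21 at 0.1 per 10000 or more was past 1.5-fold higher and 2 were past it lower, and the list's median log2 ratio was -0.10, against 0.04 over all genes. In Mo 2 of 21 were higher and 2 lower (median -0.17, against 0.07), and in DC none of 23 was higher and 4 were lower (median -0.11, against 0.00). The shares of all genes past that fold are those given for each class above.

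Most genes of the interferon gamma route to Ciita were lower in S303/7A. Irf1, the factor that activates the interferon-responsive Ciita promoter, stood at 0.534 in S303/7A MF and 0.938 in WT MF (ratio 0.570), and at 0.789 and 1.27 in DC (ratio 0.624). Socs1, the feedback inhibitor of that pathway, stood at 0.358 in S303/7A MF and 0.733 in WT MF (ratio 0.489), at 1.75 and 4.16 in Mo (ratio 0.421), and at 0.579 and 0.966 in DC (ratio 0.600). The Mo ratio of Irf1 was 0.718. Of 7 genes of the route, 6 had a ratio below 1 in MF, 6 in Mo and 4 in DC. Under the 5 or 6 alternative settings run for each class, Irf1 and Socs1 stayed below 1 in all 3 classes. In Mo, Ifngr1, a chain of the interferon gamma receptor, was the only gene of the route above 1, at 1.93 in S303/7A and 1.17 in WT (ratio 1.65). Ciita itself lay above 1 in MF and Mo at all UMIs, as did the chains in Mo. In thinned cells the Ciita ratio was 1.14 (0.897 to 1.44) in MF and 1.03 (0.603 to 1.73) in Mo. How the genes of the route bear on Ciita was not tested.

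Of 6 factors of the promoter complex at 0.1 per 10000 or more in either library, none was past 1.5-fold in MF or Mo. In DC 1 was, Rfxank, an RFX subunit, at 0.0757 in S303/7A and 0.136 in WT (ratio 0.558). Ratios lay below 1 for 4 of the 6 in MF, 5 in Mo and 4 in DC. The group's median log2 ratios were -0.08, -0.19 and -0.22. The lysosomal proteases lay above 1 in Mo in 4 of 4 cases, though cathepsin B (Ctsb) was at 0.905 under 1 alternative. The protease legumain, Lgmn, was furthest, at 6.30 in S303/7A Mo and 4.06 in WT Mo (ratio 1.55). In MF, cathepsin S (Ctss), which trims the invariant chain, had a ratio of 0.817 and cathepsin L (Ctsl) one of 1.33. Prdm1, which encodes a repressor of Ciita, had a ratio of 0.593 in Mo. H2-Eb2 had a ratio of 0.495 in DC, at 0.143 in S303/7A and 0.288 in WT.

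Class I genes differed from class II genes. All 8 genes of a class I list (Nlrc5, H2-K1, H2-D1, B2m, Tap1, Tapbp, Psmb8 and Psmb9) had ratios below 1 in MF, Mo and DC, with median log2 ratios of -0.50, -0.33 and -0.34. Nlrc5, the class I counterpart of Ciita, stood at 0.223 in S303/7A MF and 0.350 in WT MF (ratio 0.636), at 0.343 and 0.519 in Mo (ratio 0.660), and at 0.239 and 0.373 in DC (ratio 0.640). H2-K1, a class I heavy chain, had ratios of 0.681 in MF, 0.940 in Mo and 0.699 in DC. Under the alternatives run for each class these genes stayed below 1, except Tap1 in DC, which reached 1.13. The coactivators thus lay on opposite sides of 1 in MF and Mo at all UMIs. In thinned cells the interval of the Ciita ratio included 1 in MF (0.897 to 1.44) and in Mo (0.603 to 1.73). In DC the interval of Ciita included 1, and its ratio was 0.911 with clusters weighted equally. Whether the ratios of Ciita and Nlrc5 differ between genotypes was not tested, with 1 library each.

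**Figure D5:**
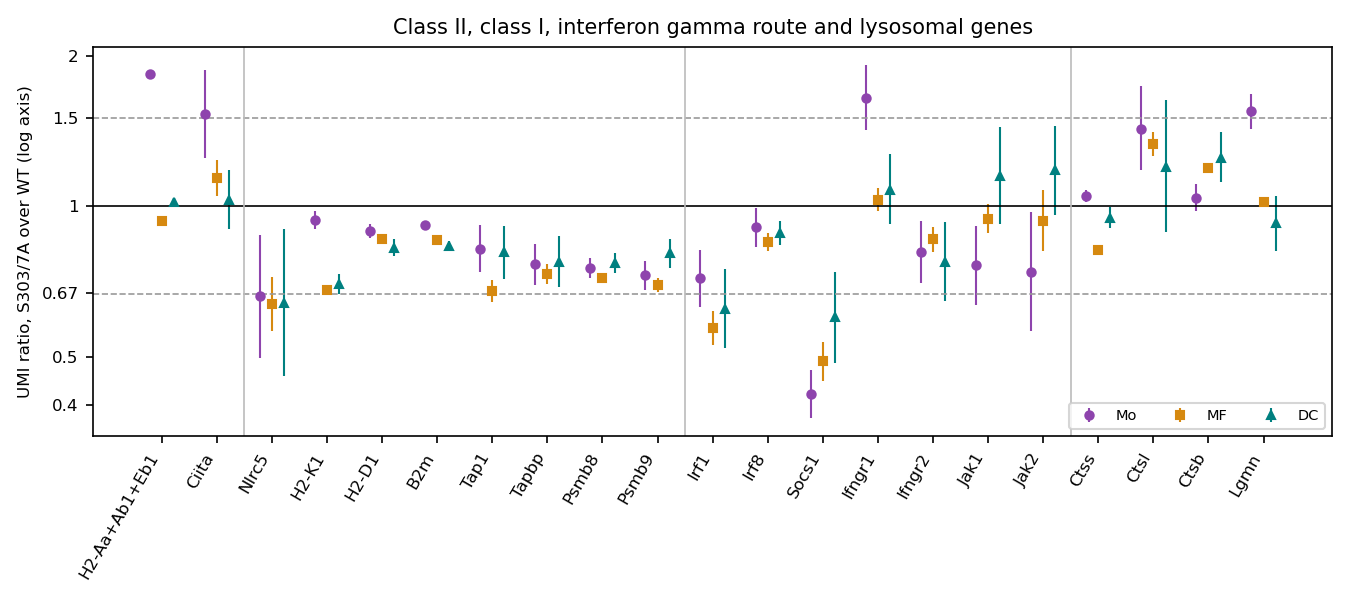
Ratio of UMIs, S303/7A over WT (log axis), with exact 95% intervals, for the chains, Ciita, 8 class I genes, 7 genes of the interferon gamma route and 4 lysosomal proteases in monocytes, macrophages and dendritic cells, where the dashed lines mark 1.5-fold. The 8 class I genes lie below 1 in each class, Ciita lies above 1 (1.53, 1.14 and 1.03), and the chains are furthest above 1 in monocytes (1.84).

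Across the 22 clusters, with the libraries pooled, genes whose log2 levels were among the 5 most like the summed chains were Spi1 (Pearson r = 0.976), Csf2ra (0.966), Rassf4 (0.961) and Cxcl16 (0.960), among 5361 genes. Those most like Ciita were Plbd1 (0.946), Gm6377 (0.922), Naaa (0.916), Mgl2 (0.913) and Tmem50b (0.905). Among the members, the likeness to the chains was 0.995 for Cd74, 0.984 for H2-DMa, 0.963 for H2-DMb1, 0.930 for Ciita, 0.859 for H2-DMb2 and 0.590 for H2-Oa. The order put H2-Oa, found also in CD8 T cells, furthest from the chains. These are descriptions over clusters that share libraries, were made from expression and differ in depth.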

How the data were processed

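The expression table deposited by the authors is on the natural log scale: the values fit UMIs of a cell scaled to a sum of 100000, with 1 added before the log. The authors also deposited whole counts of UMIs and genes per cell, the mitochondrial percent, and each cell's library, cluster and class, by methods not given in the sources used here. Per the submitters' processing notes, Cell Ranger, Seurat 3.0 and the builds mm10 and GRCm38 were used. Undoing the log gave whole UMIs: 99.94% of values above 0 came within 0.1 UMI of an integer, genes per cell matched in 11456 cells, and totals differed by at most 3 UMIs.

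A level is the pooled UMIs of a gene per 10000 UMIs, with an exact Poisson 95% interval. A ratio is S303/7A over WT with an exact conditional (Clopper-Pearson) 95% interval, given for at least 20 cells in each library. Members were counted past 1.5-fold in classes with at least 50 cells in each library, and in MF and DC clusters with at least 20, among genes at 0.1 per 10000 or more in 1 library. Shares of cells have exact (Clopper-Pearson) intervals after thinning to 1000 UMIs. Cells are not replicates, so no p-value was made. The ratio and its interval were checked on simulated Poisson counts. That is the model the interval assumes, so the check does not cover variation between cells or mice. All 9 members are named, and of the 27-gene list those past 1.5-fold in MF, Mo or DC with at least 20 UMIs or described by role. The 5 genes most alike were taken for the chains and for Ciita. Results for some genes are not reported here. Members and lists were chosen with earlier results of these data known.

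Doublets were scored with Scrublet (scanpy 1.11.5). The threshold it chose marked 0.0833% of S303/7A and 0.827% of WT cells, so no cell was left out, and an alternative left out the 215 and 361 highest-scoring cells. Python 3.11.15, numpy 2.4.6, scipy 1.17.1 and pandas 2.3.3 were used. Promoters came from RefSeq (GRCm38.p6) and positions from GENCODE M21.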

Additional observations from a re-analysis of the deposited data

Results flagged for a closer look

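The chain ratios were unlike in different classes, above 1.5 in monocytes, CD8 T cells and NK cells and slightly below 1 in macrophages (0.935). The macrophage clusters lay on both sides of 1, at 1.28 in C13, 1.11 in C02, 0.923 in C05, 0.854 in C03 and 0.725 in C09. The monocyte ratio divided by the macrophage ratio was 1.97, the CD8 T cell ratio divided by it was 1.64, and the NK cell ratio divided by it was 1.87. With 1 library per genotype none of these differences was tested. In cells thinned to 1000 UMIs the chain ratios were 1.46 in CD8 T cells and 1.45 in NK cells, below 1.5. The macrophage marker sums that moved with them are 68.6 in S303/7A and 31.8 in WT monocytes, 7.12 and 3.35 in CD8 T cells, and 6.61 and 3.57 in NK cells, and their part was not tested.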

How the results depend on the processing

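The chain ratio stayed above 1.5 in Mo under the planned settings: 1.71 as a mean over cells, 1.68 in thinned cells and 1.9 without cells with markers of another lineage. With settings chosen after seeing the data it was 1.48 in thinned Mo without macrophage marker UMIs, where the DC chain ratio was 0.989, and 1.01 with Mo and MF as 1 class. The Mo Ciita ratio was 1.03 in thinned cells, 1.14 in those without macrophage marker UMIs and 1.17 with Mo and MF as 1 class. The MF chain ratio was 0.924 as a mean over cells, 0.903 thinned, 0.884 without high doublet scores, 0.998 with clusters weighted equally, 0.987 without cells with markers of another lineage and 1.01 with Mo and MF as 1 class, and the MF Ciita ratio was 1.29 with clusters weighted equally. The DC chain ratio was 1.05 without high doublet scores, 1.01 with clusters weighted equally and 1.06 without other-lineage markers, and the DC Ciita ratio was 1.26 thinned. Past 2-fold there was 1 member in Mo and 0 in MF, and in MF 0 were past 1.5-fold with H2-DMb1 and H2-DMb2 summed. In DC 1 member was past 1.5-fold as a mean over cells, thinned, and without other-lineage markers. In tumor cells 0 members were past 1.5-fold as reported, with H2-DMb2, H2-Oa and Ciita left out for their low levels. There were 4 past it without high doublet scores and 5 without other-lineage markers. Chains were then at 1.84 and 2.12 and Ciita at 2.02 and 5.11. For these counts of members under other settings, the share of all genes past the same fold was not counted. The chain ratio in NK cells was 1.44 as a mean over cells, 1.45 thinned and 1.33 without other-lineage markers. In CD8 T cells it was 1.46 thinned and 1.44 with clusters weighted equally. H2-DMb2 in Treg turned to 0.947 as a mean over cells, and Ciita in tumor cells to 0 in thinned cells without macrophage marker UMIs, from 0 S303/7A and 1 WT UMIs. Thinned Mo had an H2-Oa ratio of 0.277. The causes of these changes were not tested. Of 381 ratios under planned settings, 343 stayed on their side of 1 and 38 did not, and 22 moved by more than 1.5 times. Depth limits H2-Oa, H2-DMb2 and Ciita, which rest on few UMIs in thinned Mo, Treg and tumor cells. No paired analysis was possible because each genotype had 1 library.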
